A study of Nicotiana tabacum with 9 samples.

Results

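The genes described here are 3 of the tobacco genes that the study lists as homologs of plastidial fatty acid desaturases of Arabidopsis, namely LOC107759483 for FAD6, LOC107786526 for FAD7 and LOC107783156 for FAD8. The study also lists a second homolog of FAD6, LOC107809769, and of FAD8, LOC107807128, which are compared with them below. The 3 genes were taken by their identifiers from the deposited annotation, in which they are 3 of 74044 genes, and all 3 had enough counts to be tested. The plants were Nicotiana tabacum of the cultivar Samsun-NN, and the sources used here name no transgene or mutation. Transcripts were counted by RNA sequencing of their in vitro grown pollen tubes, in 3 libraries for each of 3 conditions. These were growth for 3 h at room temperature followed by 3 h of heat stress at 37°C (HS 3 + 3 h), growth for 6 h at room temperature (RT 6 h) and growth for 3 h at room temperature (RT 3 h). Pollen of several plants was pooled for each experiment. Whether the 3 libraries of a condition came from separate pools is not given in the sources used here, so the p-values measure the spread between these libraries, which may be technical. In whole pollen tubes, fewer transcripts of a gene per tube and fewer tubes that express it cannot be told apart.

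Fatty acid desaturases place double bonds in the acyl chains of membrane lipids, and plants have separate sets in the plastid and in the endoplasmic reticulum. In the plastid, FAD6 makes linoleic acid from oleic acid, and FAD7 and FAD8 then make linolenic acid from it, mainly on galactolipids. They take their electrons from ferredoxin. In the endoplasmic reticulum, FAD2 and FAD3 carry out the same pair of steps, mainly on phosphatidylcholine, with electrons from cytochrome b5. In Arabidopsis leaves, FAD8 is known as the omega-3 desaturase favoured at low temperature. The plastidial enzymes are imported from the cytosol and carry an N-terminal transit peptide that their counterparts in the endoplasmic reticulum lack.

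The label of LOC107786526 was checked against its gene structure, and the structure went against it. In the annotation of the TN90 assembly, this gene lies on the plus strand of scaffold NW_015913449.1 from 80640 to 83323. It has 9 exons and 8 coding blocks, which are the stretches of coding sequence between introns, and they add up to 1140 coding bases and a protein of 379 residues. All 8 blocks are equal in length to those of LOC107763446, which the study lists as the homolog of FAD3, the omega-3 desaturase of the endoplasmic reticulum. LOC107763446 lies on the minus strand of scaffold NW_015880202.1 from 463 to 3103. By contrast, LOC107783156, the FAD8 homolog, has 8 exons, 1326 coding bases and 441 residues, and lies on the plus strand of scaffold NW_015798323.1 from 2224 to 4957. Its first coding block holds 491 bases, which is 195 bases or 65 codons more than the 296 bases of the first block of LOC107786526. The other listed FAD8 homolog, LOC107807128, has a first block of 494 bases and 442 residues. The extra codons of both FAD8 homologs lie at the N-terminal end, where a transit peptide would be. In a RefSeq gene table of the K326 assembly, LOC107763446 has the synonym NtFAD3 and LOC107783156 has the synonym NtFAD7, while LOC107786526 has none. Since LOC107786526 has no such extension in this annotation, it is called by its identifier here and not FAD7. No protein sequences were compared, so its homology remains unsettled.

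The 6 inner coding blocks of LOC107786526, of 90, 67, 93, 186, 81 and 138 bases, are shared in length and order by 7 annotated genes, and these are called the omega-3 type below. Besides the 4 genes named so far, they are LOC107777511, LOC107804927 and LOC107832399, which the study's table does not list. LOC107777511 and LOC107804927 had 0 counts in each of the 9 libraries, and LOC107832399 had at most 1 count in any library. A limit of 3 counts was taken as what a count of 0 allows. It corresponds to between 0.112 and 0.201 CPM (counts scaled to a library of equal size) in these libraries. A count of 0 therefore does not exclude levels under that. LOC107759483, the FAD6 homolog, has another structure with 10 exons, 1332 coding bases and 443 residues, and lies on the plus strand of scaffold NW_015866955.1 from 15014 to 21898. The second FAD6 homolog, LOC107809769, has the same 10 coding blocks. None of these genes overlaps another annotated gene. How reads that align to several genes were counted is not given in the sources used here. The split of reads between LOC107786526 and LOC107763446, between the FAD8 homologs and between the FAD6 homologs is thus uncertain wherever their sequences are alike. The FAD8 homologs LOC107783156 and LOC107807128 share 7 of 8 coding blocks in length.

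**Figure D1:**
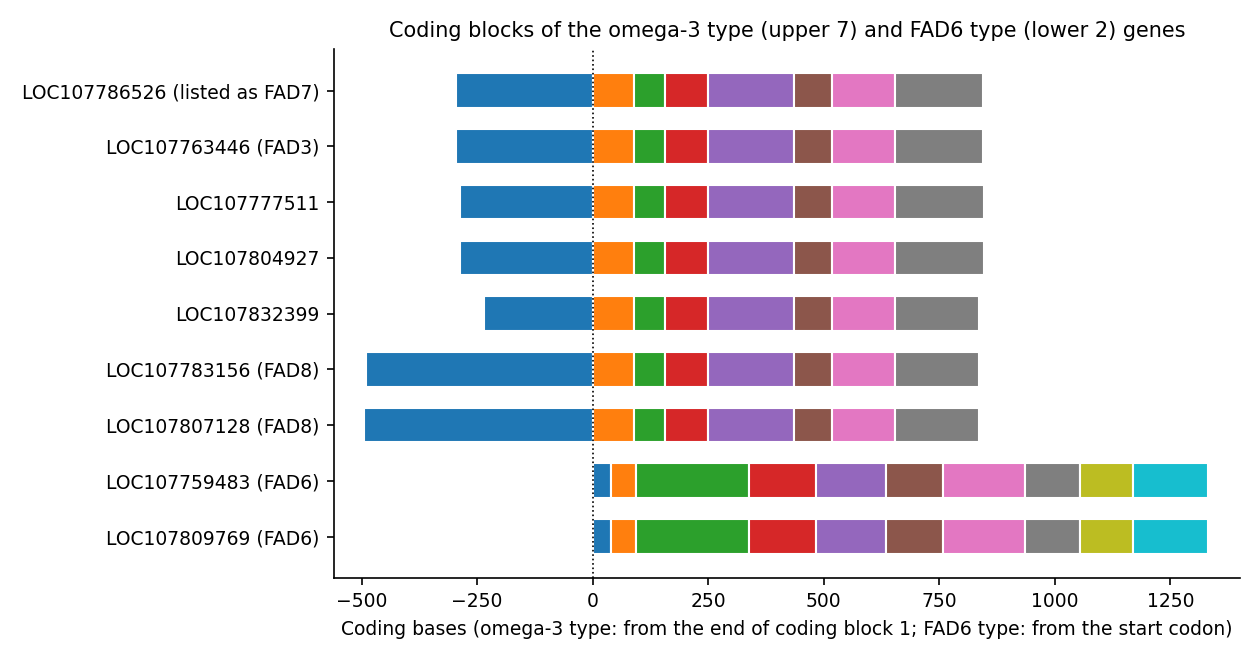
Coding blocks of the 7 omega-3 type genes and the 2 FAD6 type genes, drawn to scale in coding bases, with a color for each block in order. The omega-3 type genes are aligned at the end of their first block, which is 296 bases long in LOC107786526 and LOC107763446 and 491 and 494 bases long in the FAD8 homologs LOC107783156 and LOC107807128.

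The libraries held between 14931693 and 26772286 counts on genes, with the fewest in HS 3 + 3 h replicate 1. Levels are given in CPM after TMM scaling of all 9 libraries, and as RPKM (CPM per kilobase of exon) where genes are compared with each other. The tissue label was checked with marker genes picked by name from a RefSeq table after their values had been seen. The 3 pollen genes summed to between 43524 and 45542 CPM in HS 3 + 3 h, between 39381 and 43091 CPM at RT 6 h and between 31277 and 34626 CPM at RT 3 h. The 4 chlorophyll a/b binding protein genes of green tissue summed to between 0.182 and 0.410 CPM in HS 3 + 3 h, 0.115 and 0.273 CPM at RT 6 h and 0.183 and 0.341 CPM at RT 3 h, with at most 6 counts for any of them in any library. Lhcb4 (LOC107774251) had 0 counts in all RT 3 h libraries. Green tissue markers were thus at or near 0, and on the TMM scale the pollen sum did not overlap between HS 3 + 3 h and either RT condition. Without TMM scaling, each of the 3 pollen genes had a lower mean in HS 3 + 3 h than at RT 6 h. These means were 21243 and 22642 CPM for LOC107773574, 12136 and 12148 CPM for LOC107829710, and 6552 and 6567 CPM for LOC107815818. The part of that pollen sum in the results below was not tested. The small heat shock protein gene Nthsp26a (LOC107764596) had 61, 167 and 140 counts in the 3 HS 3 + 3 h libraries and at most 2 counts in any RT library, as the heat label has it.

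The 3 genes stood far apart in level. Averaged over the 9 libraries, LOC107786526 was at 874 RPKM, rank 159 of the 24013 genes past the count minimum. LOC107783156 was at 10.9 RPKM, rank 3913, and LOC107759483 at 3.26 RPKM, rank 8294. Including the copies, the order per length was LOC107786526, LOC107763446 (401 RPKM), LOC107807128 (30.1 RPKM), LOC107783156, LOC107759483 and LOC107809769 (0.584 RPKM), and the ranges of neighbours in this order over the 9 libraries did not overlap.

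Of the summed RPKM of the omega-3 type genes, LOC107786526 took 66.5 ± 0.218% in HS 3 + 3 h, 67.6 ± 0.450% at RT 6 h and 65.1 ± 0.0373% at RT 3 h (SD, n = 3 each). LOC107783156 took 0.782 ± 0.0328% in HS 3 + 3 h, 0.832 ± 0.0723% at RT 6 h and 0.889 ± 0.0542% at RT 3 h. Both FAD8 homologs together were at 43.6 ± 0.787 RPKM in HS 3 + 3 h, 40.5 ± 1.05 RPKM at RT 6 h and 39.0 ± 1.30 RPKM at RT 3 h. The omega-3 transcripts in these pollen tubes were thus for the most part those of the shorter gene pair, LOC107786526 and LOC107763446, which summed to 1553 ± 30.3 RPKM in HS 3 + 3 h, 1122 ± 44.9 RPKM at RT 6 h and 1149 ± 53.4 RPKM at RT 3 h. The FAD6 homologs summed to 3.53 ± 0.848 RPKM in HS 3 + 3 h, 3.08 ± 0.502 RPKM at RT 6 h and 4.92 ± 0.354 RPKM at RT 3 h, and LOC107759483 made up 86.6 ± 2.46% of them in HS 3 + 3 h, 82.0 ± 3.35% at RT 6 h and 85.4 ± 1.49% at RT 3 h.

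To ask whether heat changed these genes in tubes of equal age, HS 3 + 3 h was compared with RT 6 h. LOC107786526, the omega-3 desaturase gene with the FAD3-like structure, was at 1620, 1581 and 1628 CPM in the HS 3 + 3 h libraries and at 1145, 1201 and 1228 CPM in the RT 6 h libraries. All 3 heat libraries were above all 3 RT 6 h libraries, as was so for 26.3% of all genes tested, while for 24.1% they were below. Its fold change was 1.35, or a log2 fold change (log2FC) of 0.43 (SE 0.04, 95% interval 0.36 to 0.51), with an FDR of 8.34e-17 in edgeR's quasi-likelihood test.

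LOC107783156, the FAD8 homolog, was at 24.3, 24.1 and 23.0 CPM in HS 3 + 3 h and at 19.4, 17.1 and 18.7 CPM at RT 6 h. These groups did not overlap either. It rose by a log2FC of 0.37 (SE 0.07, 95% interval 0.23 to 0.51, edgeR FDR 7.78e-06). LOC107759483, the FAD6 homolog, was at 4.15, 6.97 and 5.69 CPM in HS 3 + 3 h, from 56, 153 and 125 counts, and at 5.01, 3.82 and 5.00 CPM at RT 6 h, from 120, 100 and 128 counts. The heat libraries spread widely and overlapped the RT 6 h libraries, with replicate 1 the lowest of the heat libraries. Its log2FC of 0.33 (SE 0.13, 95% interval 0.06 to 0.59) had an edgeR FDR of 0.0371, above the limit of 0.005. The value depended on single libraries. It was 0.47 without HS 3 + 3 h replicate 1 (edgeR FDR 0.00271, past the limit), but 0.14 without HS 3 + 3 h replicate 2 (edgeR FDR 0.501) and 0.20 without RT 6 h replicate 2 (edgeR FDR 0.307).

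At an FDR of at most 0.005, 2 of the 3 genes were higher in HS 3 + 3 h than at RT 6 h and 0 were lower, where 17.5% of the 23053 genes tested were higher and 14.4% lower. None passed the fold limit of a log2FC of 1 as well, which 9.11% of all genes did. The median log2FC was 0.37 over the 3 genes and 0.01 over all genes tested. Without TMM scaling the median of all genes in this comparison moved to -0.15, and LOC107783156, at a log2FC of 0.21 (edgeR FDR 0.0126), was no longer called. LOC107786526 was then at 0.28 (edgeR FDR 1.09e-10) and LOC107759483 at 0.17 (edgeR FDR 0.305).

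**Figure D2:**
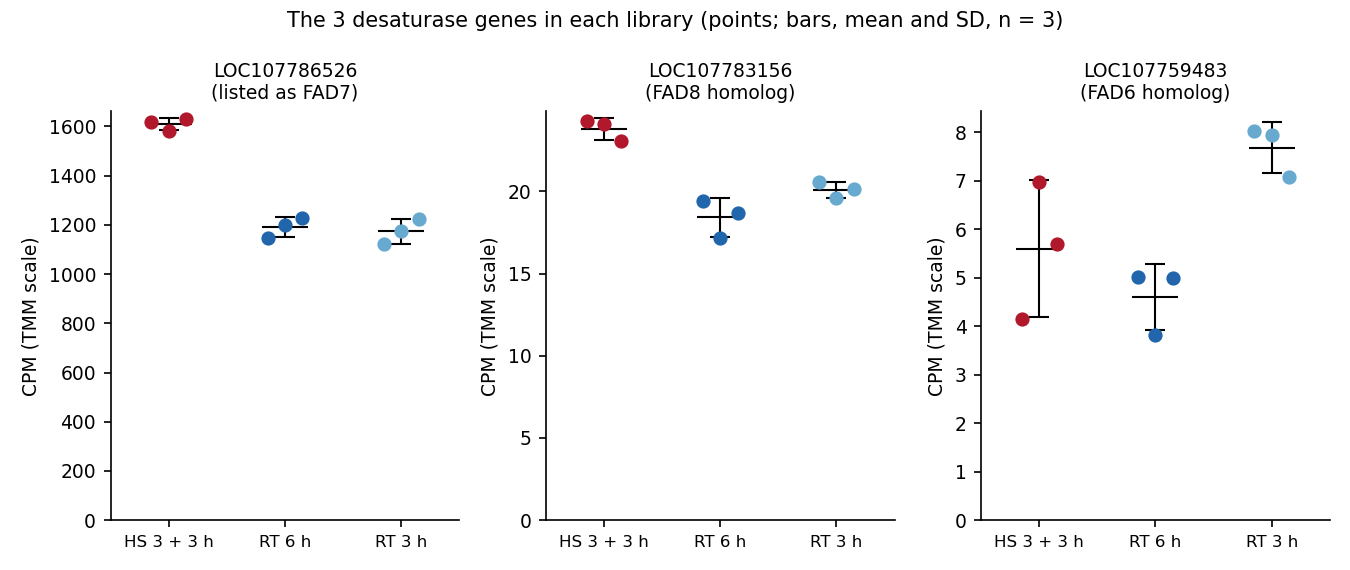
CPM of LOC107786526, LOC107783156 and LOC107759483 in each library, with HS 3 + 3 h in red, RT 6 h in dark blue and RT 3 h in light blue. Points are libraries and bars are the mean and SD (n = 3). The heat libraries of LOC107786526 lie between 1581 and 1628 CPM, above all RT libraries, while those of LOC107759483 lie between 4.15 and 6.97 CPM and overlap RT 6 h.

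The comparison of HS 3 + 3 h with RT 3 h, the state before heat onset, uses the same heat libraries. LOC107786526 was at 1120, 1175 and 1225 CPM in the RT 3 h libraries, again below all heat libraries (28.7% of all genes had all heat libraries above those of RT 3 h, and 27% below). Its log2FC was 0.45 (SE 0.05, 95% interval 0.35 to 0.55, edgeR FDR 2.42e-09). LOC107783156 was at 20.6, 19.6 and 20.1 CPM at RT 3 h, which is also below its heat libraries, but its log2FC of 0.24 (SE 0.07, 95% interval 0.08 to 0.39) had an edgeR FDR of 0.00878 and did not pass the limit. LOC107759483 was at 8.03, 7.95 and 7.08 CPM at RT 3 h, so that here all 3 heat libraries were lower, the nearest pair being 6.97 CPM in HS 3 + 3 h and 7.08 CPM at RT 3 h. Its log2FC was -0.42 (SE 0.13, 95% interval -0.69 to -0.16) with an edgeR FDR of 0.00712, which is above the limit as well.

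Thus 1 of the 3 genes was called higher and 0 lower against RT 3 h, beside 18.5% higher and 16.9% lower among the 23373 genes tested. None passed the fold limit as well, beside 12.3% of all genes. This count depended on single libraries. Without RT 3 h replicate 1 all 3 genes were called, with LOC107783156 at a log2FC of 0.24 (edgeR FDR 0.00374) and LOC107759483 at -0.40 (FDR 0.00357). LOC107759483 was also called without RT 3 h replicate 3 (-0.49, edgeR FDR 0.00498) and without HS 3 + 3 h replicate 2 (-0.61, edgeR FDR 0.00110), which makes 2 genes in each case. It was weaker without HS 3 + 3 h replicate 1 (-0.28, edgeR FDR 0.0751), and was not called without HS 3 + 3 h replicate 3 (-0.41, edgeR FDR 0.0386) or RT 3 h replicate 2 (-0.42, edgeR FDR 0.0210) either. Without TMM scaling, which moves the median log2FC of all genes to -0.28 here, LOC107786526 was at 0.16 (edgeR FDR 0.00129) and still called, LOC107759483 was called lower, at -0.71 (edgeR FDR 5.00e-05), and LOC107783156 turned to -0.05 (edgeR FDR 0.613).

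To see what growth alone did, RT 6 h was compared with RT 3 h. LOC107759483 was the only gene called. It fell to between 3.82 and 5.01 CPM at RT 6 h, against 7.08 to 8.03 CPM at RT 3 h, so that the groups did not overlap (19% of all genes lay above and 19.5% below in this way), with a log2FC of -0.73 (SE 0.12, 95% interval -0.97 to -0.49, edgeR FDR 2.17e-05). LOC107786526 overlapped between both ages and had a log2FC of 0.03 (95% interval -0.07 to 0.13, edgeR FDR 0.726). LOC107783156 had a log2FC of -0.12 (95% interval -0.27 to 0.03, edgeR FDR 0.266), with its highest RT 6 h library at 19.4 CPM and its lowest RT 3 h library at 19.6 CPM. So 0 of the 3 genes were called higher and 1 lower, beside 7.39% higher and 7.92% lower of the 23043 genes tested. None passed the fold limit, beside 1.7% of all genes. Without TMM scaling the median of all genes moved to -0.13 and the log2FC of LOC107786526 turned to -0.11 (edgeR FDR 0.0398), which is not called.

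Across the 3 conditions, the order of mean levels differed from gene to gene. LOC107786526 was highest in HS 3 + 3 h (1610 ± 25.0 CPM), while RT 6 h (1191 ± 41.9 CPM) and RT 3 h (1173 ± 52.3 CPM) did not differ beyond their spread. LOC107783156 was at 23.8 ± 0.678 CPM in HS 3 + 3 h, 18.4 ± 1.16 CPM at RT 6 h and 20.1 ± 0.486 CPM at RT 3 h. LOC107759483 was highest at RT 3 h (7.69 ± 0.524 CPM), whereas HS 3 + 3 h (5.60 ± 1.41 CPM) and RT 6 h (4.61 ± 0.685 CPM) overlapped.

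Each gene was then set against its closest copy, which for LOC107786526 was the FAD3 homolog LOC107763446. LOC107763446 was at 748, 720 and 761 CPM in HS 3 + 3 h, at 483, 504 and 537 CPM at RT 6 h and at 538, 569 and 595 CPM at RT 3 h. It rose in HS 3 + 3 h against RT 6 h (log2FC 0.55, SE 0.04, edgeR FDR 1.02e-20) and against RT 3 h (log2FC 0.38, SE 0.05, edgeR FDR 1.60e-07), and had a log2FC of -0.15 (edgeR FDR 0.0329) between RT 6 h and RT 3 h. Both genes of the shorter pair were thus higher under heat than in either RT condition. Without TMM scaling the log2FC of LOC107763446 against RT 3 h was 0.10 (edgeR FDR 0.0733) and was no longer called. For RT 6 h against RT 3 h it was called lower without TMM scaling (-0.30, edgeR FDR 3.24e-05) and without RT 3 h replicate 1 (-0.20, edgeR FDR 0.000401).

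The second FAD8 homolog, LOC107807128, was at 58.2, 61.2 and 60.0 CPM in HS 3 + 3 h, at 59.2, 58.3 and 60.4 CPM at RT 6 h and at 56.8, 52.8 and 54.5 CPM at RT 3 h. It was more abundant than LOC107783156 in every library, and its heat and RT 6 h libraries overlapped. Its log2FC was 0.01 (95% interval -0.09 to 0.12, edgeR FDR 0.854) for HS 3 + 3 h against RT 6 h and 0.12 (95% interval 0.00 to 0.25, edgeR FDR 0.0954) against RT 3 h. The direction of both values turned without TMM scaling, to -0.14 (FDR 0.0257) and -0.16 (FDR 0.0327), and neither was called.

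The second FAD6 homolog, LOC107809769, was near the count minimum, with 9, 20 and 25 counts in HS 3 + 3 h, 35, 22 and 24 counts at RT 6 h and 42, 37 and 35 counts at RT 3 h. Its heat libraries lay below those of RT 3 h and overlapped those of RT 6 h. No comparison of it passed the limit, with log2FCs of -0.19 (95% interval -0.75 to 0.36, edgeR FDR 0.615) against RT 6 h, -0.57 (95% interval -1.09 to -0.04, edgeR FDR 0.0662) against RT 3 h, and -0.36 (95% interval -0.85 to 0.13, edgeR FDR 0.303) for RT 6 h against RT 3 h. These intervals are too wide to tell the FAD6 homologs apart.

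**Figure D3:**
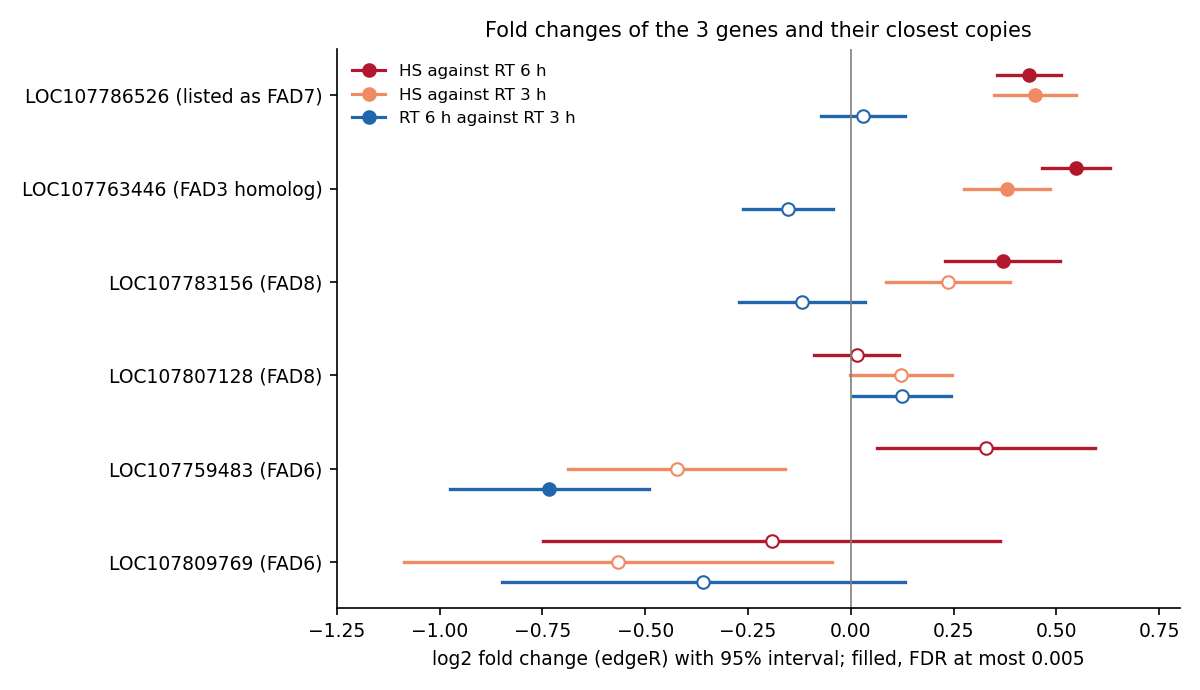
Log2 fold changes of the 3 genes and their closest copies in the 3 comparisons, with the 95% interval of edgeR as a line and a filled point where the FDR is at most 0.005. The intervals of LOC107786526 and LOC107763446 lie above 0 in both comparisons with heat, and that of LOC107759483 reaches from -0.97 to -0.49 for RT 6 h against RT 3 h.

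Whether a gene and its copy responded differently was tested on the log2 ratio of their CPM in each library, with an exact two-sided permutation test of 3 libraries against 3, for which 0.1 is the smallest p possible. The ratio of LOC107786526 to LOC107763446 was 1.11, 1.14 and 1.10 in HS 3 + 3 h, 1.25, 1.25 and 1.19 at RT 6 h, and 1.06, 1.05 and 1.04 at RT 3 h. These groups did not overlap, and the ratio was 0.11 lower on the log2 scale under heat than at RT 6 h and 0.07 higher than at RT 3 h. The ratio of LOC107783156 to LOC107807128 was -1.26, -1.34 and -1.38 in HS 3 + 3 h, -1.61, -1.76 and -1.69 at RT 6 h and -1.46, -1.43 and -1.44 at RT 3 h. It was thus 0.36 higher under heat than at RT 6 h, again with no overlap, and LOC107783156 made up 28.7 ± 0.884% of the RPKM of both FAD8 homologs in HS 3 + 3 h, 23.8 ± 0.992% at RT 6 h and 27.0 ± 0.256% at RT 3 h. For these gene pairs the exact p was 0.1 in all 3 comparisons, and 0.15 after Benjamini-Hochberg adjustment over the 9 tests. For LOC107759483 and LOC107809769 the mean ratio was 2.63 ± 0.307 in HS 3 + 3 h, 2.13 ± 0.323 at RT 6 h and 2.48 ± 0.173 at RT 3 h, with an exact permutation p of 0.2 for heat against RT 6 h, 0.6 for heat against RT 3 h and 0.2 for RT 6 h against RT 3 h (n = 3 each). None of the 9 tests can pass 0.05 in this design. How often the ratios of other gene pairs separate without overlap was not computed. Of single genes, 26.3% lay above and 24.1% below without overlap for heat against RT 6 h.

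**Figure D4:**
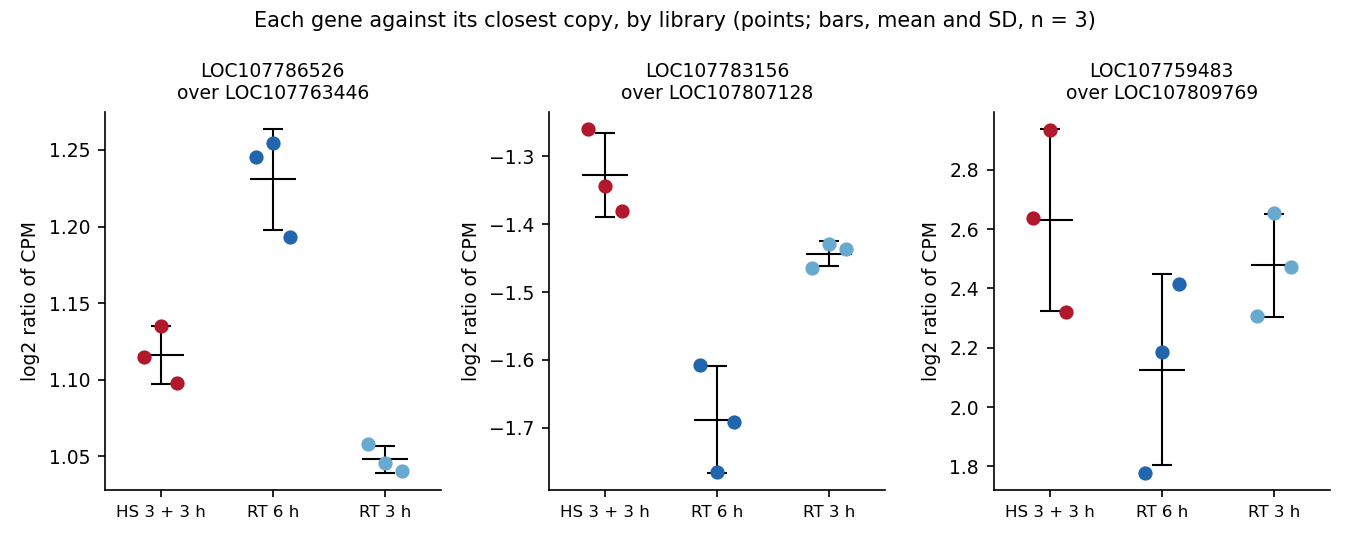
Log2 ratio of CPM of each gene to its closest copy in each library, with HS 3 + 3 h in red, RT 6 h in dark blue and RT 3 h in light blue; points are libraries and bars the mean and SD (n = 3). The vertical axes do not start at 0 and differ between panels. For LOC107783156 over LOC107807128 the heat libraries lie between -1.38 and -1.26 and those of RT 6 h between -1.76 and -1.61.

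The 3 genes were also read against the 15 acyl desaturases of the study's lipid gene table, which holds them too. For that table the study matched genes detected in these libraries to a compiled list of Arabidopsis lipid genes. Of the 15 genes, 7 were higher and 2 lower in HS 3 + 3 h than at RT 6 h, with a median log2FC of 0.33. Of all genes tested, 17.5% were higher and 14.4% lower there. Against RT 3 h, 6 of the 15 were higher and 3 lower (median 0.12), beside 18.5% higher and 16.9% lower of all genes. Between RT 6 h and RT 3 h, 0 were higher and 3 lower (median -0.12), beside 7.39% higher and 7.92% lower of all genes. The medians of all genes were near 0. Without TMM scaling the calls were 6 higher and 2 lower, 4 higher and 5 lower, and 0 higher and 6 lower in these comparisons, and without RT 3 h replicate 1 they were 7 higher and 5 lower against RT 3 h under heat and 0 higher and 5 lower for RT 6 h against RT 3 h. The genes called higher under heat against both RT conditions were all 4 FAD2 homologs, LOC107763446 and LOC107786526. The FAD2 homologs and LOC107763446 are listed as homologs of enzymes of the endoplasmic reticulum. LOC107786526 is listed as FAD7 and shares the coding block lengths of LOC107763446, and where its protein resides was not tested. The largest rise was that of the FAD2 homolog LOC107829678, which averaged 2479 CPM in HS 3 + 3 h and 1292 CPM at RT 6 h (log2FC 0.94, edgeR FDR 2.26e-36). It was also the largest rise against RT 3 h, where it averaged 1403 CPM (log2FC 0.81, edgeR FDR 2.28e-14).

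LOC107786526, which the study lists as FAD7, was set apart by its gene structure alone. It was called higher in both comparisons with heat (log2FC 0.43 against RT 6 h and 0.45 against RT 3 h). The counts that follow leave it out, although by the study's homology it is plastidial. Besides it, 9 of the listed genes are plastidial by homology. These are the FAD6 and FAD8 homologs and 5 stearoyl-ACP desaturases, soluble enzymes that place the first double bond in stearic acid. Of these 9, LOC107783156 was the only gene higher in HS 3 + 3 h than at RT 6 h, and 2 were lower, beside 17.5% higher and 14.4% lower of all genes. Against RT 3 h, 0 of the 9 were higher and 3 lower, beside 18.5% higher and 16.9% lower of all genes. Between RT 6 h and RT 3 h, 0 were higher and 3 lower, among them LOC107759483, beside 7.39% higher and 7.92% lower of all genes. All of these genes called lower under heat were stearoyl-ACP desaturases, and the alternatives above that called more genes lower against RT 3 h also called LOC107759483. Against RT 6 h the largest fall was that of the FAB2/SSI2 homolog LOC107762320, which averaged 14.2 CPM in HS 3 + 3 h and 18.8 CPM at RT 6 h (log2FC -0.39, edgeR FDR 1.67e-05). Another FAB2/SSI2 homolog, LOC107830822, fell most against RT 3 h (6.85 CPM in HS 3 + 3 h and 11.9 CPM at RT 3 h, log2FC -0.82, edgeR FDR 1.02e-07), and nearly as far with growth alone (log2FC -0.80 for RT 6 h against RT 3 h, edgeR FDR 2.07e-07).

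**Figure D5:**
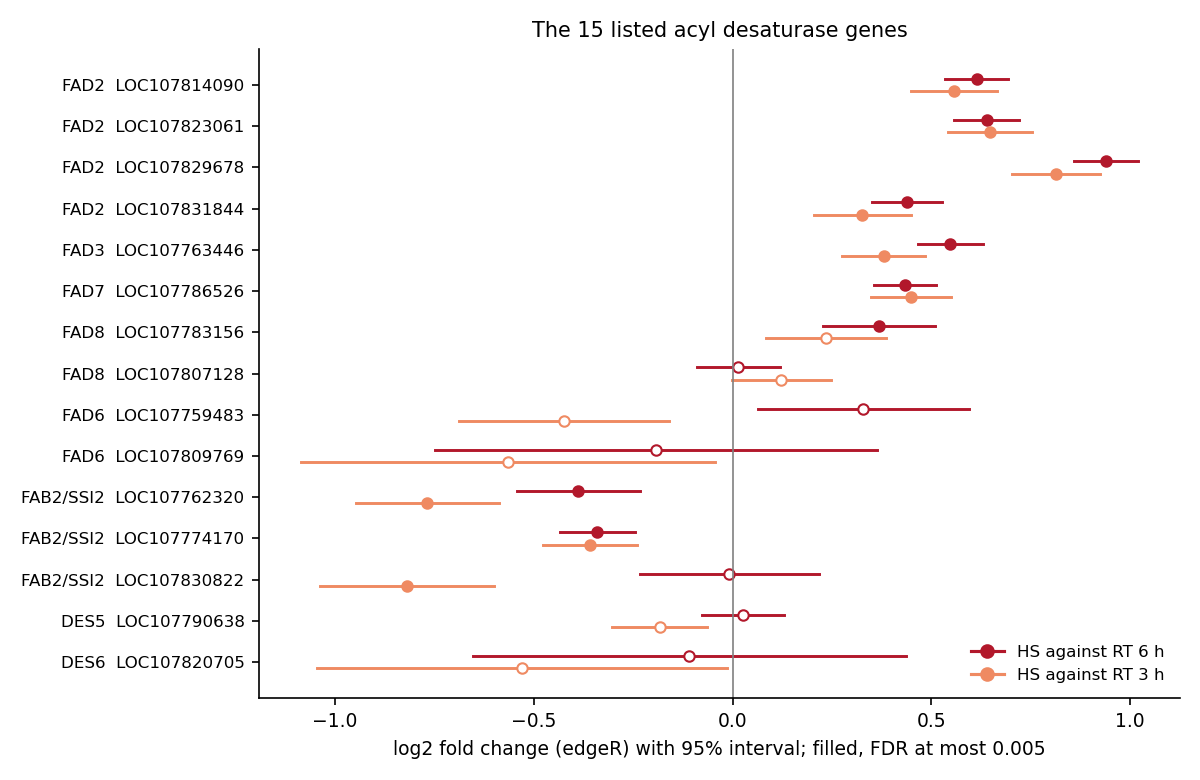
Log2 fold changes of the 15 listed acyl desaturase genes in HS 3 + 3 h against RT 6 h (red) and against RT 3 h (orange), labeled with the Arabidopsis homolog of the lipid gene table, with 95% intervals and filled points where the edgeR FDR is at most 0.005. All 4 FAD2 homologs, LOC107763446 and LOC107786526 lie above 0 in both comparisons, and the FAB2/SSI2 homologs LOC107762320 and LOC107774170 lie below 0 in both.

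The plastidial desaturases act on galactolipids, whose genes the study lists as well. Of these 17 genes, 4 were higher and 5 lower in HS 3 + 3 h than at RT 6 h (median log2FC 0.00), beside 17.5% higher and 14.4% lower of all genes. Under heat, 3 were higher and 5 lower than at RT 3 h (median -0.23), beside 18.5% higher and 16.9% lower of all genes. At RT 6 h, 0 were higher and 3 lower than at RT 3 h (median -0.15), beside 7.39% higher and 7.92% lower of all genes. Without TMM scaling the counts of the 17 genes were 2 higher and 8 lower, 0 higher and 8 lower, and 0 higher and 8 lower. Against RT 3 h, 1 gene was higher and 5 lower without HS 3 + 3 h replicate 2, and 2 were higher and 5 lower without RT 3 h replicate 2 or 3. DESeq2 called 3 higher and 3 lower against RT 6 h. With TMM scaling, the galactolipid genes called under heat thus moved in both directions, also among homologs of the same enzyme. Of the 3 homologs of the digalactosyldiacylglycerol synthase DGD2, LOC107778488 rose most against RT 6 h, to 8.42 CPM in HS 3 + 3 h against 5.34 CPM at RT 6 h (log2FC 0.67, edgeR FDR 5.26e-07), and was the largest fall with growth alone (log2FC -0.59 for RT 6 h against RT 3 h, edgeR FDR 5.74e-05). It averaged 8.11 CPM at RT 3 h, and its log2FC for heat against RT 3 h was 0.06 (edgeR FDR 0.680). The other DGD2 homologs were more abundant. Against RT 6 h, LOC107801677 was higher at 238 CPM in HS 3 + 3 h (log2FC 0.38, edgeR FDR 3.64e-12). LOC107762360 was lower at 195 CPM (log2FC -0.20, edgeR FDR 0.000110). The DGS1 homolog LOC107807921 fell most against RT 6 h, with 2.31 CPM in HS 3 + 3 h and 4.34 CPM at RT 6 h (log2FC -0.90, edgeR FDR 1.30e-06).

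Against RT 3 h, the largest rise and the largest fall were both in homologs of the phosphatidate phosphatase PAH2. LOC107808338 averaged 0.870 CPM in HS 3 + 3 h, from 10, 27 and 14 counts, and 0.337 CPM at RT 3 h, from 8, 12 and 8 counts. Its log2FC was 1.37 (edgeR FDR 0.00212), at levels near the count minimum. By contrast, LOC107808344 averaged 1.31 CPM in HS 3 + 3 h and 3.19 CPM at RT 3 h (log2FC -1.31, edgeR FDR 8.44e-07). A gene that the RefSeq table names NtMGD1, LOC107787940, had at most 4 counts in any library. It is outside the study's list, whose 2 MGD2 homologs were abundant. LOC107814929 averaged 276 CPM in HS 3 + 3 h and 230 CPM at RT 6 h (log2FC 0.26, edgeR FDR 1.62e-07). LOC107778411 averaged 257 CPM in HS 3 + 3 h and 265 CPM at RT 6 h (log2FC -0.05, edgeR FDR 0.399). Of the electron transfer chain that serves the plastidial enzymes, the ferredoxin-NADP reductase gene LOC107825625 was found by name after its values had been seen. It was at 4.15, 4.92 and 5.10 CPM in HS 3 + 3 h and at 6.81, 7.37 and 7.61 CPM at RT 6 h, and fell by 0.60 on the log2 scale (edgeR FDR 1.21e-05), while against RT 3 h its log2FC was -0.34 (edgeR FDR 0.0322).

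The genes whose pattern was most like that of each of the 3 were sought by Pearson's r of log2 CPM over the 9 libraries, which share their scaling and group structure, and are given as a description. For LOC107786526 these were LOC107763030, LOC107826844 and LOC107799822, each with r = 0.99, and among the acyl desaturases LOC107763446 was closest (r = 0.95), followed by the FAD2 homologs LOC107823061 (r = 0.94) and LOC107829678 (r = 0.93). For LOC107783156 they were LOC107824327, LOC107817465 and LOC107774042 (r = 0.98 each), and its closest acyl desaturase was the FAD2 homolog LOC107829678 (r = 0.92), while its own copy LOC107807128 had r = 0.28. For LOC107759483 they were LOC107767726 (r = 0.98), LOC107791329 and LOC107788605 (r = 0.95 each), and its closest acyl desaturase was the stearoyl-ACP desaturase DES5 homolog LOC107790638 (r = 0.79), ahead of its copy LOC107809769 (r = 0.67). Between the 3 genes r was 0.84 for LOC107786526 and LOC107783156, -0.21 for LOC107786526 and LOC107759483, and 0.19 for LOC107783156 and LOC107759483.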

How the data were processed

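Libraries were made from poly(A) RNA with a kit that does not keep the strand. The authors aligned 50 bp single-end reads to the TN90 genome with STAR 2.5.2a and deposited whole-number counts per gene from featureCounts 1.5.0-p1, without normalization (base calls from bcl2fastq 2.17.1.14, versions per the submitters' processing notes). How multi-mapping reads were treated is not given in the sources used here. Each library held 14931693 to 26772286 counts on genes. No replicate was a copy of another.

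Comparisons were fitted separately, with the 6 libraries of both conditions, in R 4.3.3 with edgeR 4.0.16 (TMM, quasi-likelihood test, Benjamini-Hochberg FDR over all genes) for genes over 0.5 CPM in at least 2 libraries. The limits were an FDR of at most 0.005, with and without an absolute log2FC over 1. RPKM used merged exon length. Scripts were tested on simulated data. Figures and summaries used Python 3.11.15 and pandas 2.3.3.

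The 3 genes and all lists were chosen with earlier results of these data known. The study compiled Arabidopsis lipid genes from other sources, and its lists hold their tobacco homologs detected in these libraries. Named genes are the 3 genes, their copies, the FAD3 homolog, the list genes called with the largest rise and fall, and for each of the 3 genes the 3 genes with the highest r. Further genes named are the other omega-3 type genes, the closest acyl desaturases by r, and the listed DGD2 and MGD2 homologs. Outside these rules, the markers, NtMGD1 and the ferredoxin-NADP reductase gene LOC107825625 were picked by name. The last is a single gene and does not stand for its electron transfer chain. Homolog names come from the study's lipid gene table. Lists of electron donors (ferredoxin, cytochrome b5), of tapetum markers and of desaturases by product text were not built, since the annotation used here holds no product text, so marker genes were taken by RefSeq synonym. The alternatives tried for the tests were DESeq2 1.42.0, DESeq2's size factors or no TMM in edgeR, the likelihood ratio test of edgeR, a minimum of 10 counts per library or no filter, a single fit to all 9 libraries, the replicate number as a block, an FDR limit of 0.05, leaving out each library, the longest transcript as length, and pseudocounts of 0.5 and 2 for the copy ratios.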

Additional observations from a re-analysis of the deposited data

How the results depend on the processing

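LOC107786526 was higher in HS 3 + 3 h than at RT 6 h and RT 3 h, and LOC107759483 lower at RT 6 h than at RT 3 h, past the limit under all 14 alternatives run for each, although without TMM the log2FC of LOC107786526 was 0.28 for heat against RT 6 h and 0.16 for heat against RT 3 h. Library sizes without TMM gave 1 of the 3 genes called against RT 6 h (2 with TMM) and 2 against RT 3 h (1 with TMM), and for RT 6 h against RT 3 h 6 acyl desaturases and 8 galactolipid genes (3 and 3 with TMM), all lower. Without TMM the log2FC turned to -0.049 for LOC107783156 in HS 3 + 3 h against RT 3 h, to -0.11 for LOC107786526 at RT 6 h against RT 3 h, and for LOC107807128 to -0.14 and -0.16 in HS 3 + 3 h against RT 6 h and RT 3 h and to -0.021 for RT 6 h against RT 3 h. The cause was not tested. Without TMM the mean RPKM in HS 3 + 3 h was 958 for LOC107786526 and 11.3 for LOC107783156, and at RT 3 h it was 854, 11.6 and, for LOC107759483, 4.64.

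Against RT 3 h, the likelihood ratio test and no filter each gave 2 of the 3 genes and an FDR limit of 0.05 gave 3. That limit gave 5 acyl desaturases and 7 galactolipid genes for RT 6 h against RT 3 h. Leaving out a library gave 1 to 3 of the 3 genes against RT 3 h, 2 to 3 against RT 6 h, and 2 to 5 acyl desaturases for RT 6 h against RT 3 h (5 without RT 3 h replicate 1). It gave log2FCs of -0.0074 to 0.036 for LOC107807128 and -0.39 to 0.069 for LOC107809769 in HS 3 + 3 h against RT 6 h, and of -0.010 to 0.057 for LOC107786526 at RT 6 h against RT 3 h, all with a change of sign and none called.

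The replicate numbers were not treated as pairs, and these values cannot decide whether they pair the libraries. The correlation of deviations ran from -0.019 to 0.11 for the 9 pairs with the same number, 1 of them over 0.1. For the 18 pairs with another number it ran from -0.078 to 0.027. Between RT 6 h and RT 3 h it was 0.11 for replicate 1, 0.018 for replicate 2 and 0.059 for replicate 3. With the replicate block, 5 acyl desaturases were called lower at RT 6 h than at RT 3 h (3 without the block), LOC107763446 being called at -0.15 (FDR 0.00114), and the number of the 3 genes called stayed at 2 in HS 3 + 3 h against RT 6 h and at 1 in each of the other comparisons. Depth limits LOC107809769 and LOC107759483, at 9 to 42 and 56 to 233 counts per library. Among the galactolipid genes it also limits LOC107808338, at 7 to 27 counts per library.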
